A study of Homo sapiens with 6 samples.

Results

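Matrix proteases and their inhibitors were followed through maps of R-loops in human lung fibroblasts. The 9 genes, MMP1, MMP2, MMP3, MMP10, MMP14, TIMP2, TIMP3, PLAU and PLAUR, were listed by name for their function. Earlier results of these data were known when they were chosen. All 9 were found among the 19821 protein-coding genes of RefSeq (GRCh38.p14) on chromosomes 1 to 22 and X. An R-loop is a stretch of DNA in which RNA has paired with the template strand and left the other strand single. The assay, MapR, tethers micrococcal nuclease to RNA-DNA hybrids through RNase H (RH-MNase) and sequences the fragments that the nuclease frees; nuclease fused to GST alone is the background enzyme. The cells were IMR90, an established line of embryonic lung fibroblasts, of wild-type genotype and kept at 2% oxygen. Proliferating cells carried a control vector, senescent cells expressed oncogenic Ras ectopically, and quiescent cells had been starved. The labels do not name the Ras form, the time of harvest or the length of starvation. Of 6 libraries, 1 per state and enzyme, the 3 made with RH-MNase gave the peak lists described here, and those made with GST-MNase were not analysed.

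Matrix metalloproteinases (MMPs) are zinc enzymes made as inactive precursors that cut collagens, gelatin, fibronectin and other proteins of the matrix. Tissue inhibitors of metalloproteinases (TIMPs) block them. The urokinase system, in which PLAU turns plasminogen into plasmin at the cell surface while bound to PLAUR, acts upstream, since plasmin can activate MMP precursors. Fibroblasts in Ras-induced senescence are known to secrete several of these proteins as part of their secretory phenotype. An R-loop map reports where RNA-DNA hybrids lie and is no measure of how much RNA or protein is made.

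The proliferating list held 101802 peaks over 85.4 Mb, the senescent list 85564 over 54.1 Mb and the quiescent list 9736 over 4.12 Mb. Read depth is unknown, so a shorter list and a lower depth cannot be told apart. With 1 library per state there is no replicate, no spread and no test between states, and every difference below is between single libraries. Each peak carries a score that the authors assigned, a whole number of at least 10 on a scale that is not stated. It is used here only to rank peaks within their own list, as a percentile in which tied scores share their mean rank, or as a rank from the highest score in which they share the best. Peaks carry no strand. All 9 fibroblast marker genes had a proliferating peak, but so did 5 of 5 epithelial, 4 of 4 endothelial and 4 of 4 immune markers. The median part of the locus under peaks was 33.7%, 21.4%, 6.77% and 15.2% in these lists, and the presence of a peak did not tell the cell type.

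Each gene was taken with flanks of 1000 bp as its locus, and the covered percent is the part of the locus that lies under peaks. In proliferating cells 8 of the 9 loci held at least 1 peak, beside 83.4% of all protein-coding genes. In senescent cells 7 did, beside 80.3%, and in quiescent cells 4 did (MMP2, MMP14, TIMP2 and PLAU), beside 34.4%. These shares lie near those of all genes, and how much of a locus was covered is given next. The mean covered percent of the 9 was 23.8% in proliferating (SD across genes 24.2), 17.0% in senescent (SD 21.5) and 2.42% in quiescent cells (SD 4.02), where all protein-coding genes had 12.7%, 8.04% and 0.985%. The medians were 16.7%, 6.36% and 0%, beside 5.90%, 3.2% and 0% for all genes. The means rest on PLAU and MMP14, which were far above the other members in each list.

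**Figure D1:**
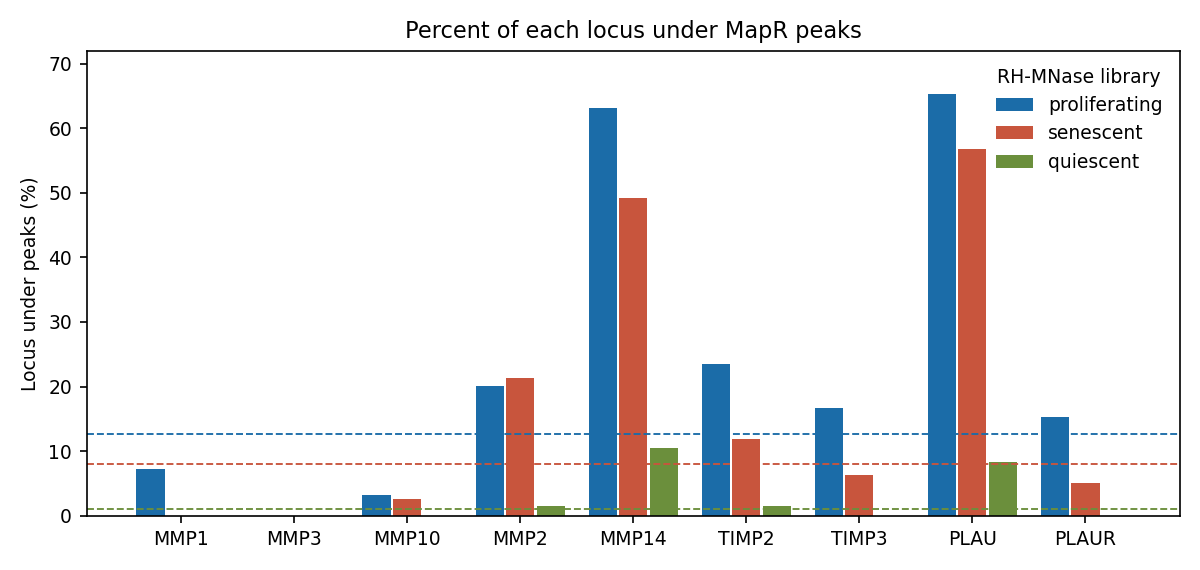
Percent of each locus under peaks (vertical axis) for the 9 genes in the proliferating, senescent and quiescent RH-MNase libraries, 1 library each; dashed lines mark the mean of all protein-coding genes in the library of the same colour. PLAU and MMP14 are covered most in each list, MMP3 has no bar, and MMP2 is the gene whose senescent bar (21.3%) is above its proliferating bar (20.1%).

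From proliferating to senescent cells the covered percent was lower in 7 members, beside 72.5% of all protein-coding genes, higher in MMP2 alone, beside 13.2%, and equal at 0 in MMP3. The median difference was -8.47 percentage points for the 9 members and -1.91 for all genes. The ratio of mean covered percent, senescent to proliferating, was 0.714 for the members and 0.634 for all genes. When the proliferating list was shortened by score until it covered as many bases as the senescent one, 4 members were lower and 3 higher (MMP2, MMP10 and MMP14), beside 53.0% and 30.0% of all genes, so these counts depend on the length of the lists. In the full lists MMP1, PLAUR and TIMP3 were at least 2 times lower or absent in senescent cells, 3 of 9 beside 30.7%. At equal covered length only PLAUR of these was (13.8% and 5.10%), since TIMP3 had 8.66% and 6.36% and MMP1 had no peak in either list. PLAUR in turn had 11.7% and 7.31% with flanks of 5000 bp. MMP1 had a proliferating and no senescent peak in the full lists, 1 of 9 beside 5.48%. In quiescent cells 8 members were lower than in proliferating cells, beside 83.4%, and none was higher, beside 0.0101%. The quiescent list covers 4.12 Mb against 85.4 Mb, and 99.4% of its peaks lie on a proliferating peak. These counts thus largely restate which loci had a proliferating peak. The senescent and quiescent comparisons share the proliferating library.

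MMP1, the interstitial collagenase that opens fibrillar collagen, lies on chromosome 11 from 102789919 to 102798160. Its locus was covered over 7.27% in proliferating cells and had no peak in senescent or quiescent cells. Among genes of similar length (10 groups of equal size by locus length) the proliferating value stood at percentile 30.8, where a percentile is the percent of genes with a lower value. The 2 peaks were weak, and neither was left without the peaks under the median score, at equal covered length or with 9736 peaks in each list. A peak of 471 bp and score 20 (percentile 44.2) covered the high-coordinate end of the gene, and a peak of 274 bp and score 13 (percentile 10.6) lay inside. Both also lie within WTAPP1, a transcribed pseudogene that runs over the whole of MMP1 and reaches into MMP3.

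MMP3, or stromelysin 1, cuts a wide range of matrix proteins and activates other MMP precursors. It lies on chromosome 11 from 102835801 to 102843609 and had no peak in any of the 3 lists. The nearest proliferating peak, of 223 bp and score 19, lay outside the flank, within 5000 bp of the gene. MMP1 and MMP3 are among the genes best known for secretion by senescent fibroblasts. Neither had a peak in the senescent list, where 80.3% of all protein-coding genes had one. In their gene cluster, described below, 2 of 9 genes had a senescent peak and 3 a proliferating one. Whether a missing peak bears on secretion was not tested.

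MMP10, or stromelysin 2, is a close relative of MMP3 and lies on chromosome 11 from 102770502 to 102780628. Its locus was covered over 3.27% in proliferating cells, 2.61% in senescent cells and 0% in quiescent cells. The near-equal values came from different places, and without flanks the senescent value was higher by 1.44 points. The proliferating peak (397 bp, score 15, percentile 21.4) covered the gene start, whereas the senescent peak (316 bp, score 20, percentile 56.8) lay 8873 bp from it, near the other end of the gene, and the peaks did not overlap. A promoter window, 250 bases before to 50 after the start, is listed for 5 of the members. That of MMP10 is shown because it is the AT-rich extreme among these members. It was under a proliferating peak over 92.3% of its length and under no senescent or quiescent peak. In this and the windows below, from RefSeq (GRCh38.p14), capitals mark matches to 4 motifs searched on both strands: TGANTCA for AP-1, TATAAA for the TATA box, GGGANTTCC for NF-kappaB, and GGGG.
MMP10, chr11:102780579-102780878, minus strand: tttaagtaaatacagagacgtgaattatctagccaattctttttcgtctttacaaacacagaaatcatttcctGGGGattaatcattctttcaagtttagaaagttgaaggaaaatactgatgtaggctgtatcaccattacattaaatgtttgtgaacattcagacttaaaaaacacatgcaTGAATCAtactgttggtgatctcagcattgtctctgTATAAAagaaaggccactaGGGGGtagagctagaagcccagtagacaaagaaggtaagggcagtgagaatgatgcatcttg

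The MMP10 window has 36.3% GC, lower than in all but 2.88% of 22132 windows of protein-coding genes, and 2 CpG. It holds the AP-1 letters TGAATCA at position -67 from the start and TATAAA at -31. Such letters occur in 6.15% (AP-1) and 9.46% (TATA box) of all windows. Among windows with the lowest GC, the lowest of 5 equal groups, 24.2% touched a proliferating and 14.1% a senescent peak. The fourth group had the highest shares, 87.8% and 71.4%, and the most GC-rich group had 86.1% and 60.6%.

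MMP1, MMP3 and MMP10 belong to a cluster of 9 MMP genes on chromosome 11, from MMP7 at 102520508 to MMP13 at 102955732, which spans 435 kb. The cluster held 17 proliferating, 15 senescent and 0 quiescent peaks, over 1.94%, 1.47% and 0% of its length. MMP7, MMP27, MMP8, MMP3, MMP12 and MMP13 had no peak in any list. Peaks were found over MMP20, MMP10 and MMP1 in proliferating cells and over MMP20 and MMP10 in senescent cells. These are 3 and 2 of the 9 genes, beside 83.4% and 80.3% of all protein-coding genes. The other peaks lay between genes or beyond the flanks. Of the 17 proliferating peaks 4 overlapped a senescent peak, 2 of them in MMP20 and 2 between genes, where 49.9% of all proliferating peaks did.

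**Figure D2:**
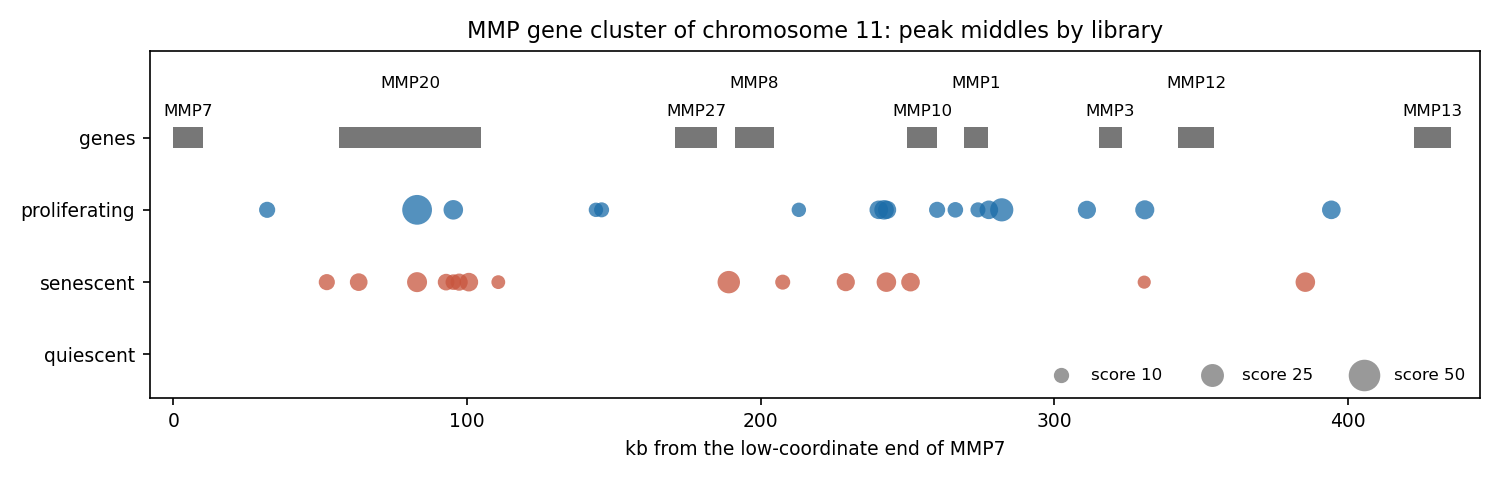
Peak middles along the MMP cluster of chromosome 11 (horizontal axis, kb from the low-coordinate end of MMP7) in the 3 RH-MNase libraries, with the 9 genes above; the area of a point is proportional to the authors' score, which is not comparable between lists. There are 17 proliferating, 15 senescent and 0 quiescent peaks, and no senescent peak lies over MMP1 or MMP3.

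MMP2, gelatinase A, degrades gelatin and basement membrane collagen and lies on chromosome 16 from 55478830 to 55506691. Peaks covered 20.1% of it in proliferating cells, 21.3% in senescent cells and 1.54% in quiescent cells, with 7, 5 and 1 peaks. It is the member with the higher senescent value, by 1.23 percentage points, a difference larger than that of 92.7% of all genes. The sign turned with flanks of 5000 bp (-0.38 points), with the weaker peaks of each list, those under its median score, left out (-0.11), and with 9736 peaks in each list (-7.54). At equal covered length the difference was larger, 7.83 points (13.5% and 21.3%). At the low-coordinate end, a senescent peak of 3083 bp (score percentile 84.6, width percentile 99.5) took in 2 separate proliferating peaks of 647 and 1172 bp. Inside the gene a peak was present in all 3 lists at 55499525 to 55499984, the span of the quiescent peak. There the senescent peak had score 53, rank 357 of 85564 (percentile 99.5), and the proliferating peak score 57 (percentile 93.9). A senescent peak of 791 bp and score 16 had no proliferating or quiescent partner, and proliferating peaks of 933 and 195 bp had no senescent partner.

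MMP14 encodes membrane-type 1 MMP, a collagenase of the cell surface that activates the MMP2 precursor in a complex with TIMP2. The gene lies on chromosome 14 from 22836585 to 22847758. Peaks covered 63.2% of its locus in proliferating cells, 49.1% in senescent cells and 10.4% in quiescent cells, at percentiles 99.0, 99.5 and 98.5 of genes of similar length. Peaks were more numerous in the senescent list, with 6 proliferating and 10 senescent peaks, and narrower, with median widths of 1356 and 702 bp. All 6 proliferating peaks overlapped a senescent peak, where 49.9% of all proliferating peaks did. The highest proliferating peak (3710 bp, score 80, rank 929) ran over the downstream end of the gene, where a quiescent peak of score 37 (percentile 94.0) also lay, and overlapped 2 senescent peaks. The difference of -14.1 points became 0.11 at equal covered length and -29.6 (49.0% and 19.4%) with 9736 peaks in each list. The promoter window chr14:22836335-22836634, with 55.0% GC, lay under a proliferating peak over 100% of its length, under a senescent peak over 42.7% and under no quiescent peak.

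TIMP2, which inhibits MMPs and also links the MMP2 precursor to MMP14, lies on chromosome 17 from 78852977 to 78925387. Peaks covered 23.5% of it in proliferating cells, 11.9% in senescent cells and 1.52% in quiescent cells, and at equal covered length the first of these was 13.5%. It had the most peaks of any member, 25, 11 and 3. At 74411 bp it was also the longest locus, and per 10 kb it held 3.36, 1.48 and 0.403 peaks. Among genes of similar length these covered percents stood at percentiles 97.1, 94.2 and 95.9. The strongest proliferating peak of all members was here, inside the gene (2262 bp, score 86, rank 538 of 101802), and had senescent (score 27) and quiescent (score 25) partners. Among the senescent peaks of TIMP2 the strongest was instead one of 680 bp and score 45 (percentile 98.6) beside the high-coordinate end, which the other lists also had. CEP295NL, a gene inside TIMP2, was touched by 6 proliferating peaks and 1 senescent peak, and the lncRNA gene LOC124904068, also inside it, by 3 and 1. Of the 25 proliferating peaks 14 had no senescent partner and 11 had one, where 49.9% of all proliferating peaks had one. All 11 senescent peaks overlapped a proliferating peak, beside 65.7% of all senescent peaks.

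TIMP3 encodes the inhibitor that stays bound to the matrix, and lies on chromosome 22 from 32801705 to 32863041, within the synapsin gene SYN3. All its peaks are therefore also peaks of SYN3, and the gene of origin cannot be told apart. The lncRNA gene LOC124905104, inside TIMP3, was touched by none of them. The covered percent was 16.7% in proliferating cells, 6.36% in senescent cells and 0% in quiescent cells, with 13, 6 and 0 peaks, and at equal covered length the first of these was 8.66%. The widest peak of any member (5031 bp, width percentile 99.5, score 53) covered its start in proliferating cells. In senescent cells 3 peaks of 400, 1121 and 1151 bp overlapped that interval and together lay over 53.1% of it. Of the 13 proliferating peaks 9, all within the gene, had no senescent partner and 4 had one, where 49.9% of all proliferating peaks had one. The scores of those 9 ran no higher than 23. The promoter window is shown as the most GC-rich of the listed member windows. It has 72.7% GC, 31 CpG and 18 overlapping matches to GGGG or its complement. It was under a proliferating peak over 100% and under a senescent peak over 25.3% of its length.
TIMP3, chr22:32801455-32801754, plus strand: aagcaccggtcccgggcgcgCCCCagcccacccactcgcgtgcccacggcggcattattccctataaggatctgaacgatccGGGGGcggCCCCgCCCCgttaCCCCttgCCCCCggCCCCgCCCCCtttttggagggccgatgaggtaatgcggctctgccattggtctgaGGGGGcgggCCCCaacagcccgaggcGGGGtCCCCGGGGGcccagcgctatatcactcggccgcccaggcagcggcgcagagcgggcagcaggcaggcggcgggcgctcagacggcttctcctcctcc

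GGGG or its complement is in 93.5% of all windows, so its presence here is common; the median window of all genes has 62.3% GC and 21 CpG.

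PLAU, the urokinase plasminogen activator, lies on chromosome 10 from 73908832 to 73917494 and was the most covered member in the proliferating and senescent lists. The values were 65.3% in proliferating cells, 56.9% in senescent cells and 8.26% in quiescent cells, at percentiles 97.7, 99.3 and 94.3 of genes of similar length. All 5 proliferating peaks had a senescent partner, beside 49.9% of all proliferating peaks. Of the 7 senescent peaks 6 had a proliferating partner, beside 65.7% of all senescent peaks. The highest proliferating peak (3836 bp, score 65, percentile 96.7) lay over the low-coordinate end and flank and overlapped 3 senescent peaks. In senescent cells the highest score was inside the gene, at a peak of 1662 bp and score 30 (percentile 88.4), and the senescent peaks at the low-coordinate end and at the start had scores of 14 to 16. With peaks under the median score of each list left out, the covered percent was therefore 63.1% in proliferating cells and 15.6% in senescent cells. The lncRNA gene C10orf55 overlaps most of PLAU, and 4 of the proliferating and 5 of the senescent peaks of the locus touch it. The last of these senescent peaks, of 331 bp, lies in the flank and not over PLAU itself.

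RefSeq lists promoter windows for PLAU at 2 starts that are 522 bases apart, and the windows differed. The upstream window, with 48.7% GC and more C than G on the coding strand (GC skew -0.233, the difference of G and C over their sum), was under a proliferating peak over 89.0% of its length and under no senescent or quiescent peak. The downstream window, with 70.0% GC and a skew of 0.124, was fully under a peak in all 3 lists. It is shown because it was the only window of the members with that pattern.
PLAU, chr10:73910882-73911181, plus strand: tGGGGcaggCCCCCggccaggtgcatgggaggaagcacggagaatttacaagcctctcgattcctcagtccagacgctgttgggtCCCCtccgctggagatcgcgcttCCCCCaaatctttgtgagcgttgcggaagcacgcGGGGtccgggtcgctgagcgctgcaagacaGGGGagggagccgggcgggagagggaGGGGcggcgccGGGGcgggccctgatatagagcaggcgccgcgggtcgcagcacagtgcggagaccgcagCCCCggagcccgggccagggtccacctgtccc

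PLAUR, the receptor that holds urokinase at the cell surface, lies on chromosome 19 from 43646095 to 43670169. Its covered percent was 15.2% in proliferating cells, 5.10% in senescent cells and 0% in quiescent cells, with 3, 1 and 0 peaks. The ratio of senescent to proliferating, 0.335, was the lowest of the members that had peaks in both lists. A proliferating peak of 3138 bp (score 64, percentile 96.4) ran over the start. The lncRNA gene LOC124904724 overlaps this end of PLAUR, and the peak touches both. No peak touched the pseudogene RN7SL368P inside PLAUR. The single senescent peak, of 1330 bp and score 19 (percentile 51.5), lay within that interval but ended 2 bases short of the start on the gene's side. It took in 16.0% of the promoter window, against 100% in proliferating cells. Among peaks not under the median score of their list, PLAUR had 13.8% and 5.10% in proliferating and senescent cells. The window is shown for its AP-1 letters, TGAGTCA, at position -186 from the start. It has 64.0% GC and 18 CpG.
PLAUR, chr19:43670120-43670419, minus strand: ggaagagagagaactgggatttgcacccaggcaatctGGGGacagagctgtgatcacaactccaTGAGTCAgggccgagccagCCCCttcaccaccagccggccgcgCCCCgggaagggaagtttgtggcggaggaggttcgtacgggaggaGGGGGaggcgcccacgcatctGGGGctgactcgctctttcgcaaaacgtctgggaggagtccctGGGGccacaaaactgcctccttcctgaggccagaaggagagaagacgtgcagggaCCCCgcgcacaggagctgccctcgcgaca

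NF-kappaB letters were in none of the 6 member windows, which says only that this spelling is not there; 2.07% of all windows hold them. The 5 members with a window were MMP10, MMP14, TIMP3, PLAU and PLAUR.

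**Figure D3:**
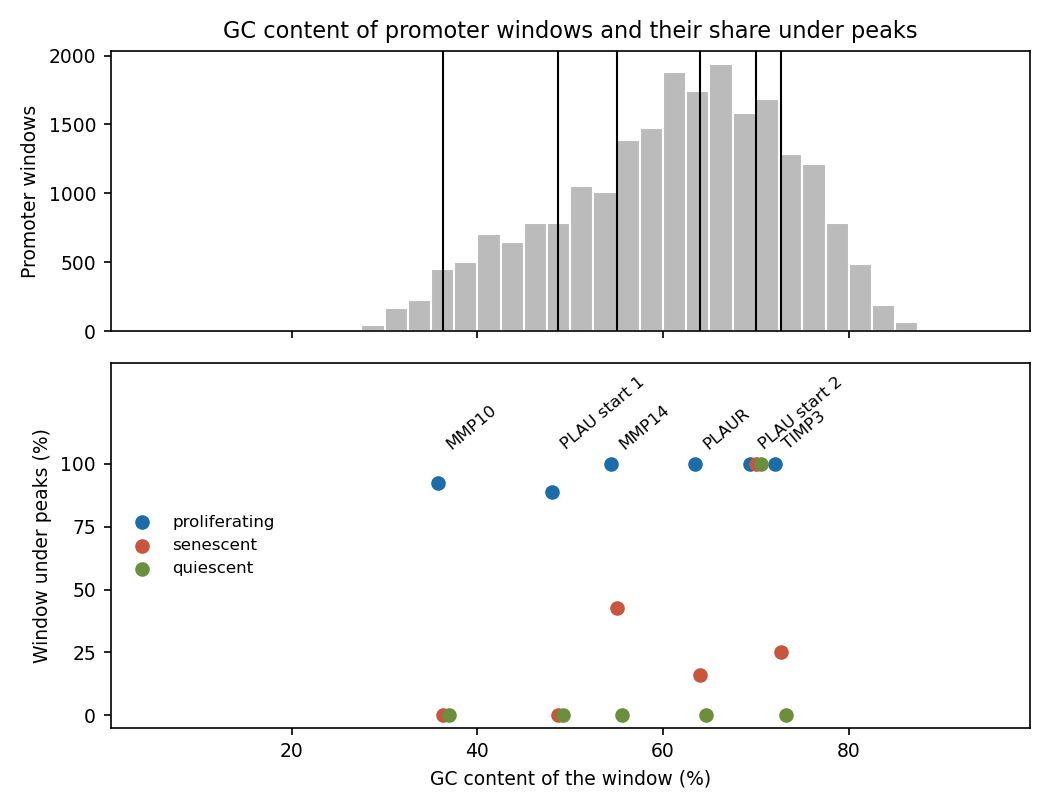
Upper panel, number of promoter windows of protein-coding genes by GC content (percent), with lines at the 6 windows of members; lower panel, the percent of each member window under peaks in the 3 libraries against its GC content, with points shifted sideways by 0.6 where they would hide each other. Each member window is at least 89.0% under a proliferating peak, and the downstream PLAU window (70.0% GC) is under peaks in all 3 lists. Of all 22132 windows, 68.1%, 51.5% and 16.2% had any base under a proliferating, senescent and quiescent peak.

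A peak within 1000 bp of a gene start, or of either end for the 4 members without a listed start, was present in 8 members in proliferating cells, beside 75.6% of all protein-coding genes. In senescent cells 6 members had it, beside 69.6%, and in quiescent cells 2 (PLAU and TIMP2), beside 28.3%. MMP1 and MMP10 were the members with such a peak in proliferating and not in senescent cells. Those peaks had scores of 20 and 15, under the median score of the list, 22. The share of all genes with this pattern was not computed. A start was listed for 5 of the 9 members and for 15812 of the 19821 protein-coding genes. Both ends were therefore searched more often among the members, MMP1 included, and the shares are not fully alike.

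**Figure D4:**
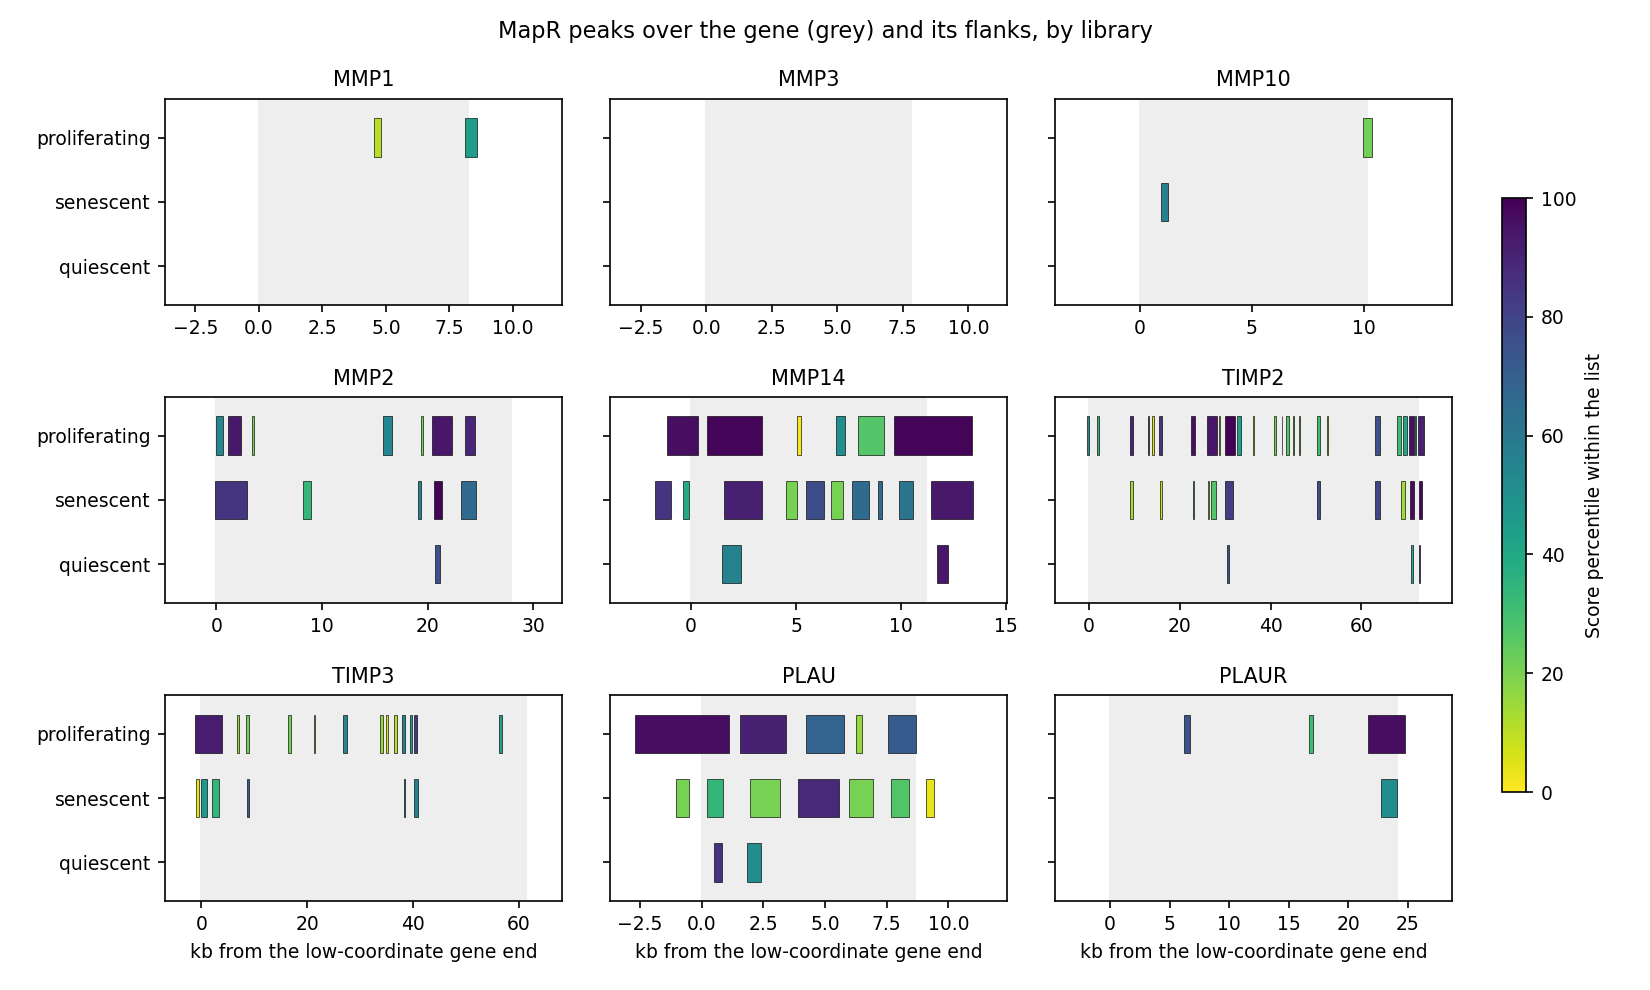
Peaks over each gene (grey) and its flanks in the 3 RH-MNase libraries (rows), in kb from the low-coordinate end of the gene; bar length is the peak's width and colour its score percentile within the list. The long proliferating peaks at the starts of TIMP3 and MMP14 and over PLAU face several shorter senescent peaks, and MMP3 is empty.

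Peak by peak, 32 of the 62 proliferating peaks over the members overlapped a senescent peak by at least 1 bp, 51.6% (95% Wilson interval 39.4 to 63.6), beside 49.9% of all proliferating peaks. Of the 41 senescent peaks 37 overlapped a proliferating peak, 90.2% (77.5 to 96.1), beside 65.7% of all senescent peaks. The 4 without a partner were in MMP2, MMP10, MMP14 and PLAU. Peaks of the same locus are not independent, and the intervals cover counting error only. All 8 quiescent peaks lay on both a proliferating and a senescent peak, beside 99.4% and 94.1% of all quiescent peaks.

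Proliferating peaks with a senescent partner had a median score of 46 and a median width of 1068 bp, and those without one 15 and 383 bp. With a score of 22, the median of the list, or more, 24 of 29 member peaks had a partner, beside 68.8% of all proliferating peaks, and below it 8 of 33 did, beside 30.6%. In 6 places 1 proliferating peak faced 2 or more senescent peaks (3 in MMP14 and 1 each in TIMP2, TIMP3 and PLAU), 9.68% of the member peaks beside 5.62% of all. The reverse, a senescent peak over 2 proliferating peaks, occurred in MMP2 and TIMP2.

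**Figure D5:**
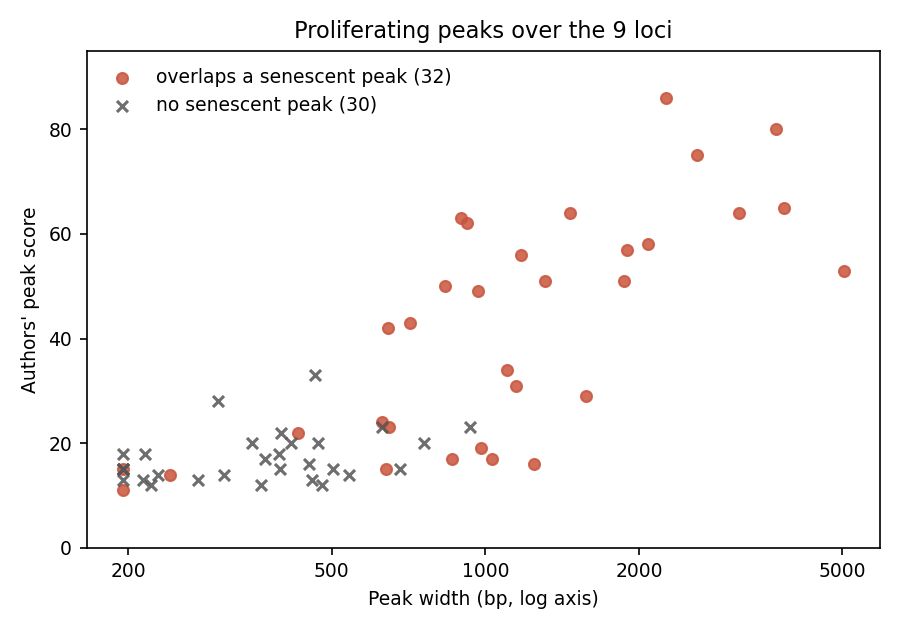
Score (vertical axis, the authors' units) against width (horizontal, bp, log axis) of the 62 proliferating peaks over the 9 loci; circles overlap a senescent peak (32) and crosses do not (30). Each proliferating peak with a score above 33 is a circle, and the crosses are narrower than 1000 bp.

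The wider matrix protease system was taken as 45 genes in 5 lists. Of these 35 (77.8%) had a proliferating, 38 (84.4%) a senescent and 15 (33.3%) a quiescent peak, beside 83.4%, 80.3% and 34.4% of all genes, with a median covered percent of 6.37%, 3.79% and 0%. Senescent cells had a lower covered percent than proliferating cells in 28 (62.2%, beside 72.5%), a higher in 10 (22.2%, beside 13.2%) and an equal in 7, with a median difference of -1.94 percentage points, close to the -1.91 of all genes. Among the 18 other MMPs 8 were lower and 5 higher. MMP11, or stromelysin 3, had 26.0% in proliferating and 13.4% in senescent cells. Of the membrane-type enzymes in this list, MMP17 had 27.7% and 15.7%, MMP24 8.68% and 5.87% and MMP16 1.40% and 0.824%. MMP15 had 16.6% and 21.8% and MMP25 19.3% and 20.0%. MMP23B had 33.4% and 15.2%, and MMP21 had a peak in senescent cells alone (3.79%).

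Among the inhibitors, TIMP1 was covered over 18.2% in proliferating and 30.3% in senescent cells and TIMP4 over 19.5% and 22.3%. In the full lists both were higher in senescent cells, where TIMP2 and TIMP3 were lower. Neither TIMP1 nor TIMP4 had a quiescent peak. They lie within the synapsin genes SYN1 and SYN2, as TIMP3 lies within SYN3, so their peaks are also peaks of these hosts. For single genes that are not members, in this and the other lists, no value under another list length or flank is given. RECK, a membrane-anchored MMP inhibitor, had 6.37% and 2.05%. All 12 ADAM and ADAMTS proteases were lower in senescent cells, beside 72.5% of all genes, with a median difference of -3.68 points; ADAMTS1 had 36.5% and 11.8%, ADAM15 33.8% and 17.9%, ADAMTS4, an aggrecanase, 21.2% and 17.0%, and ADAM19 15.8% and 7.71%.

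In the plasminogen system 4 of 7 genes were lower and 2 higher in senescent cells. PLAT, the tissue-type activator, had 21.0% in proliferating cells, 11.1% in senescent cells and 1.0% in quiescent cells, SERPINE2 4.85%, 2.56% and 1.13%, and PLGRKT, a plasminogen receptor, 2.79%, 2.16% and 0%. SERPINB2 (1.52%) and SERPINF2 (1.89%), inhibitors of urokinase and of plasmin, had a peak in senescent cells alone, and PLG, the plasminogen gene itself, had none. SERPINB2, SERPINF2 and MMP21 were named because they had a peak in 1 library alone. The share of all genes with that pattern was not computed. Of 5 cathepsin genes 3 were lower and 1 higher: CTSD had 40.2% and 23.3%, CTSB 25.5% and 12.1%, CTSK 3.79% and 2.08%, and CTSL 15.7% and 17.2%.

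The genes most like a member over the 3 lists were sought for the 3 members with the highest summed covered percent, as the smallest Euclidean distance in covered percent over the 3 libraries. With 3 points per gene this is a weak measure. For PLAU they were ABHD14B (65.2%, 57.0% and 7.52% in the same order of states, distance 0.776) and TMEM179B (66.1%, 56.3% and 7.38%, distance 1.29). For MMP14 they were CXXC5 (64.5%, 47.5% and 10.4%, distance 2.09) and MYL6B (62.1%, 47.5% and 11.9%, distance 2.45). For MMP2 they were LZTR1 (19.6%, 21.5% and 1.72%, distance 0.550) and CPZ (20.2%, 20.1% and 0.904%, distance 1.39).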

How the data were processed

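R-loops were mapped by MapR in IMR90 cells in 3 states, with 1 RH-MNase and 1 GST-MNase library each, and the latter are not analysed here. Bowtie2 2.4.5, MACS2 2.2.7.1, FastQC 0.11.9 and the build GRCh38 are named, per the submitters' processing notes. Neither settings nor read filters nor the control for peak calling were given in the sources used here. Deposited lists give peak positions and the authors' score, a whole number whose scale is not stated. Positions were made 1-based.

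Peaks, genes and promoter windows were joined with Python 3.11.15, numpy 2.4.6 and pandas 2.3.3 and drawn with matplotlib 3.10.9, after the counting code had been tested on simulated intervals; intervals came from scipy 1.17.1. Genes and promoter windows came from RefSeq tables of GRCh38.p14; only genes placed on chromosomes 1 to 22 and X were kept. A gene start came from the promoter table (15812 of 19821 genes), otherwise both annotated ends were used. No test between states was possible, so values are set beside those of all protein-coding genes.

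The members, lists, motifs and alternatives were chosen with earlier results of these data known. All members are described. From each other list, up to 4 genes with the highest covered percent are named, plus those with a peak in 1 library alone. A gene that this rule names in the plasminogen system is not reported here. For the 3 most covered members, the 2 nearest genes over 1 Mb away are named. Genes overlapping a member are named as shared. MMP20 and its neighbours in the cluster, MMP16, MMP24, MMP25, PLG and the SYN genes were named with their values known. Alternatives left out peaks under the median score, or used equal numbers of peaks, equal covered length, flanks of 0 and 5000 bp, 50% of a peak in the locus, and start windows of 500 and 3000 bp. A count was taken as kept when within 1.5 times.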

Additional observations from a re-analysis of the deposited data

How the results depend on the processing

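Under all alternatives run, PLAU, PLAUR, TIMP2 and TIMP3 were covered less in senescent than in proliferating cells. MMP10, MMP14 and MMP2 were not as stable. MMP10 turned to +2.61 percentage points without the peaks under the median score and at equal covered length, where its proliferating peak is left out, and to +1.44 without flanks. MMP14 turned to +0.11 at equal covered length (49.0% and 49.1%) and had -29.6 with 9736 peaks in each list. MMP2 turned to -0.11 without the peaks under the median score, to -7.54 with 9736 peaks in each list and to -0.38 with flanks of 5000 bp, but had +7.83 at equal covered length. With the proliferating list shortened by score until it covered as many bases as the senescent one (40460 peaks), 4 members were lower and 3 higher in senescent cells, beside 53.0% and 30.0% of all genes, and 5 proliferating members had a start peak. With 9736 peaks in each list, 4 members had a senescent peak, 0 were higher in senescent cells, and start peaks numbered 5 in proliferating and 1 in senescent cells. The number higher in senescent cells was 2 without flanks and 0 with flanks of 5000 bp. The other 54 recomputed counts stayed within 1.5 times of the reported ones. Of the differences of single members, 27 moved by less than that, 20 by more, some of MMP1 and MMP10 to 0 and MMP3 from 0 to -1.25, and 7 turned as given above. No paired analysis was possible because each state has 1 library. Without read depth and replicates, a missing peak means only that none was called in that list.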

Other observations

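MMP20, the enamel protease enamelysin, is the longest gene of the chromosome 11 cluster, 48501 bp, and had 2 proliferating and 6 senescent peaks, over 2.82% and 4.68% of its locus. In proliferating cells MMP1 also had 2 peaks, over 7.27%. Of the 6 senescent peaks 4 had no proliferating partner, with scores of 16 to 20, where 65.7% of all senescent peaks had one. A proliferating peak in MMP20 with score 51 (percentile 90.8) was the highest of the cluster and had a senescent partner of score 23. SYN3, the host gene of TIMP3, held 47 proliferating, 38 senescent and 4 quiescent peaks over 6.88%, 4.08% and 0.287% of its locus, none of the quiescent ones in TIMP3. SYN1, the host of TIMP1, had 10.6% and 11.4% in proliferating and senescent cells and SYN2, the host of TIMP4, 3.85% and 2.28%.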
